A study of Homo sapiens with 4 samples.

Results

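The G2/M and mitosis genes are 40 protein-coding genes whose products carry a cell from the end of DNA replication through chromosome segregation and cytokinesis. They were chosen by name, as the genes of a table of 19901 whose identifiers map to a list of 40 symbols, and all 40 were found. The data are TT-Seq counts from HCT116, a human colon cancer cell line. TT-Seq purifies the transcripts that incorporate a labeled nucleoside, 4-thiouridine (4sU), while it is briefly in the medium, so that the counts reflect transcription rather than the stock of mature mRNA. All 4 libraries came from 1 clone, D5, in which the endogenous KAP1 protein (the product of TRIM28, a transcriptional regulator) carries a degron tag at its C-terminus. The control group was treated with DMSO, the vehicle, for 8 h, and the other group with the ligand dTAG, which directs tagged KAP1 to the proteasome, for 8 h, with 2 libraries in each. Both groups were grown with serum and labeled with 500 μM 4sU for 10 min. There was no untagged line treated with dTAG among these libraries, so that loss of KAP1 and any other action of the ligand cannot be told apart here.

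Entry into mitosis is driven by cyclin-dependent kinase 1 (CDK1) bound to cyclins A and B, and is switched on by CDC25 phosphatases and amplified by Polo-like and Aurora kinases. Condensed chromosomes then attach to the spindle through kinetochores, and the spindle checkpoint holds back the anaphase-promoting complex (APC/C) until every chromosome is attached. Genes of this program are transcribed mainly in G2 and M and are a common signature of proliferating tumour cells. Many are controlled by the MuvB complex, with B-MYB and FOXM1 as activators, which binds a short element called the cell cycle genes homology region (CHR), and by NF-Y, which binds the CCAAT box (here also NF-Y box). In bulk libraries of unsynchronized cells, a smaller share of cells in G2 and M and less new RNA per such cell cannot be told apart.

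With dTAG, transcription of the 40 genes moved little and in both directions. Of the 39 with at least 50 counts in every library, 19 had a log2 fold change above 0 and 20 below 0, and the median was -0.02, beside -0.01 over all 12612 genes tested. CDC20, CDC25B and PLK1 fell and TTK rose. With TMM scaling none of the 39 had a fold change of 1.5 or more. Of all 12612 tested genes 353 had, a share at which few of 39 would be expected. With ERCC spike-in totals as library sizes instead, the median log2 fold change was 0.63 over the members and over all genes, and no gene passed the test (229 genes at an unadjusted p under 0.05 in edgeR, none a member). The 95% interval of the fold change lay within 1.5-fold in either direction for 38 of the 39 (97.4%), against 79.3% of all tested genes. The exception was CDC20. The members were measured more precisely, with counts of at least 2401 where all tested genes start at 50. The median SE was 0.089 over the members and 0.10 over all tested genes.

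The cells transcribed the genes of the list, since 39 of its 40 members passed the count minimum, where 63.4% of all 19901 genes did. This does not test the label of the list. The libraries carried general markers of epithelium. EPCAM, CDH1, KRT8, KRT18 and KRT19, the markers of epithelium, had at least 50 counts in all 4 libraries, while VIL1, the intestinal marker on that list, had 1 to 15, so that the markers show an epithelial line and not its colon origin. Of 8 markers of leukocytes, fibroblasts, endothelium and hepatocytes, 7 were below the minimum. COL1A1 had 420 to 538 counts at a DMSO level of 0.292 CPM per kb of gene. CPM are counts scaled by the library's total over the tested genes multiplied by its TMM factor. Counts on genes were between 93105627 and 102314741 per library. TRIM28 RNA was at 61.7 and 69.8 CPM with DMSO and 53.5 and 47.9 CPM with dTAG (log2 fold change -0.37, adjusted p = 0.019, edgeR quasi-likelihood test), but dTAG acts on the protein, so this does not check the labels.

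The regulatory elements of the program are shown at 6 of the genes. CDC20, PLK1 and CDC25B are the genes that fell with dTAG. CCNB2 carries several NF-Y boxes before a CHR, an arrangement known from such genes, and had nearly the same count in all libraries. Among the 33 members with a start site entry, MKI67 alone has a CHR that overlaps an NF-Y box. ECT2 lay at the opposite end of the fold changes from CDC20. These 6 were picked with their values known. Each run is RefSeq sequence of GRCh38.p14 from 200 bases before the start site to its first 30 transcribed bases, in the direction of the gene, with matches to the CHR (TTTGAA or TTCGAA) and the NF-Y box (CCAAT) on either strand in capitals, so that a match to TTTGAA on the other strand reads TTCAAA and a match to CCAAT reads ATTGG. CDC20 is at chr1:43358781-43359010, PLK1 at chr16:23678689-23678918, CDC25B at chr20:3786751-3786980, CCNB2 at chr15:59104946-59105175 and ECT2 at chr3:172750526-172750755, all on the plus strand, and MKI67 is at chr10:128126394-128126623 on the minus strand.
CDC20: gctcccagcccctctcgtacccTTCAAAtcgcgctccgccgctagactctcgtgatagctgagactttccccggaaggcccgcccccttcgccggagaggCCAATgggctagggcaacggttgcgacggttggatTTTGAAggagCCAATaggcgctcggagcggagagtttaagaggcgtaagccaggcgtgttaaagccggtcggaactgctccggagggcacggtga
PLK1: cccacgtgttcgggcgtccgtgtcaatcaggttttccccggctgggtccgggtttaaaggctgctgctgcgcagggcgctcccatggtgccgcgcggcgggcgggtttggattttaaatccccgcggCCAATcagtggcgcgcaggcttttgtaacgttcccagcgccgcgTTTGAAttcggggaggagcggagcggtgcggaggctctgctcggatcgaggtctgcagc
CDC25B: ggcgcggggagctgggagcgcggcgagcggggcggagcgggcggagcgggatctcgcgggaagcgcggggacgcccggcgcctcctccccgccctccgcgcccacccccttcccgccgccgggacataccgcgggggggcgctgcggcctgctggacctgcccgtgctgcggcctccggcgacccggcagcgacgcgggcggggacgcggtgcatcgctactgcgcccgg
CCNB2: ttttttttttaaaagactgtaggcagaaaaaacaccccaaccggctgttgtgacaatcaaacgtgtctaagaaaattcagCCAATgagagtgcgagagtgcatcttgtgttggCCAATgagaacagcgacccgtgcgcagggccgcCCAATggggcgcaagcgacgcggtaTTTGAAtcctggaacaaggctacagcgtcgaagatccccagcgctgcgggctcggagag
MKI67: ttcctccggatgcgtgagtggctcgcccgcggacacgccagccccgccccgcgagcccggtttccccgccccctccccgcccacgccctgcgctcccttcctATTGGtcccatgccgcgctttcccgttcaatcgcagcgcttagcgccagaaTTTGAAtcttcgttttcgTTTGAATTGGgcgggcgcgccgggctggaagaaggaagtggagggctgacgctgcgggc
ECT2: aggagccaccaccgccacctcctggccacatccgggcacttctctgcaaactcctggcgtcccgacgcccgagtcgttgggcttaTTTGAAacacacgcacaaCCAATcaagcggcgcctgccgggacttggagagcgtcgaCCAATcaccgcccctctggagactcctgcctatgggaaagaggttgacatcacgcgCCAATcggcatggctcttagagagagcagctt

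The CDC20 run holds an NF-Y box on either side of a CHR and a further CHR upstream on the other strand. PLK1 has 1 NF-Y box followed by 1 CHR, and the 3 NF-Y boxes of CCNB2 are also followed by 1 CHR. In CDC25B no letters are in capitals, so that a gene with neither motif in this window and genes with both were among those that fell. ECT2 has the same kinds of motif as CDC20, and its log2 fold change was 0.30 where that of CDC20 was -0.41.

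Across the members, 33 of 40 had an entry in the RefSeq table of start sites (300 bases each, 250 before and 50 after), and the nearest entry was used where there were several. AURKA, BIRC5, BUB3, TTK, TPX2, UBE2C and FOXM1 had no entry. In 4 cases, CENPA, NUF2, PLK1 and PRC1, the entry was more than 1000 bases from the 5′ end of the interval that was counted. A CHR was present in 22 of the 33 (66.7%), against 11.0% of the 10050 tested genes with an entry and 16.4% of all 35116 entries. An NF-Y box was present in 25 (75.8%), against 36.7% and 34.6%, and 16 had at least 2 (48.5%, against 13.6% and 10.8%). Both motifs stood in 19 of the 33 (57.6%), against 4.79% of tested genes. Short motifs match by letters alone, and these shares describe the windows and not bound sites.

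**Figure D1:**
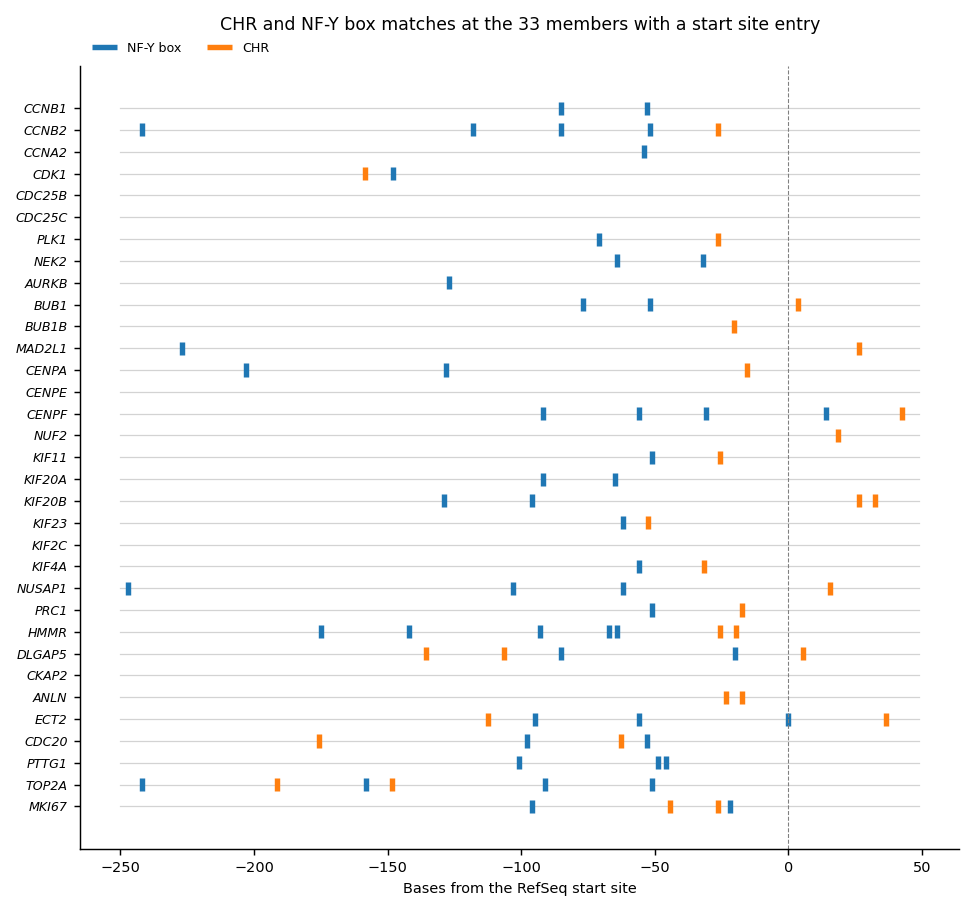
Positions of CHR matches (orange) and NF-Y box matches (blue), on either strand, relative to the RefSeq start site (0, dashed) for the 33 members with an entry; the x axis is in bases and each grey line is the 300-base window of 1 gene. Most genes with both have NF-Y boxes upstream of a CHR near the start site. CDC25B, CDC25C, CENPE, KIF2C and CKAP2 have neither motif in the window of the entry used, and other start sites of these genes were not searched.

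The fold changes of genes with and without these motifs overlapped. The 18 tested members with both motifs had fold changes from -0.41 to 0.30 on the log2 scale with a median of 0.03, and the 5 with neither from -0.35 to 0.26 with a median of -0.04. The 6 members with an NF-Y box only had a median of -0.17, and the 3 with a CHR only had a median of 0.16. The groups rest on matches to TTTGAA or TTCGAA and to CCAAT, and other forms of the motifs were not searched. The medians are of small groups and were not tested.

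In DMSO, most of the program was transcribed above the level of the median gene. The median member had 3.85 CPM per kb of gene, where the median over all tested genes was 1.06, and the members had a median percentile of 86.8. UBE2C, the ubiquitin-conjugating enzyme of the APC/C, had the highest level with 18.6 ± 2.26 CPM per kb (SD, n = 2), and MKI67, which encodes the proliferation marker Ki-67 that coats mitotic chromosomes, followed with 18.3 ± 0.858. CDC20, the APC/C activator and target of the spindle checkpoint, came next with 15.3 ± 0.376. The ranges of the DMSO libraries of UBE2C and MKI67 overlapped, so that their order is not set, whereas the range of CDC20 lay apart from MKI67 above it and AURKB below it.

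Below these came AURKB (11.3), BIRC5 (10.4), CCNB1 (8.96), CCNA2 (8.63), BUB3 (8.39), PLK1 (8.37) and TPX2 (7.09 CPM per kb). The cyclin genes, BUB3 and PLK1 overlapped with their neighbours in this order. At the other end were the chromokinesin KIF4A (0.790), CDC25C (0.782), a phosphatase that activates CDK1, and NUF2 (0.377), an outer kinetochore subunit whose level was at percentile 25.0 of all genes. Of the 38 pairs of neighbours in the order of the 39 genes, 27 had overlapping DMSO ranges. CPM per kb averages over the whole counted interval, introns included, so it compares genes as transcription per length. The RefSeq start site used for NUF2 lies 55379 bases inside its interval of 89.2 kb. For CENPA it lies 21768 bases inside 36.8 kb. If transcription begins at these sites, the levels per kb of both genes are too low, and the place of NUF2 as the lowest member is not set.

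**Figure D2:**
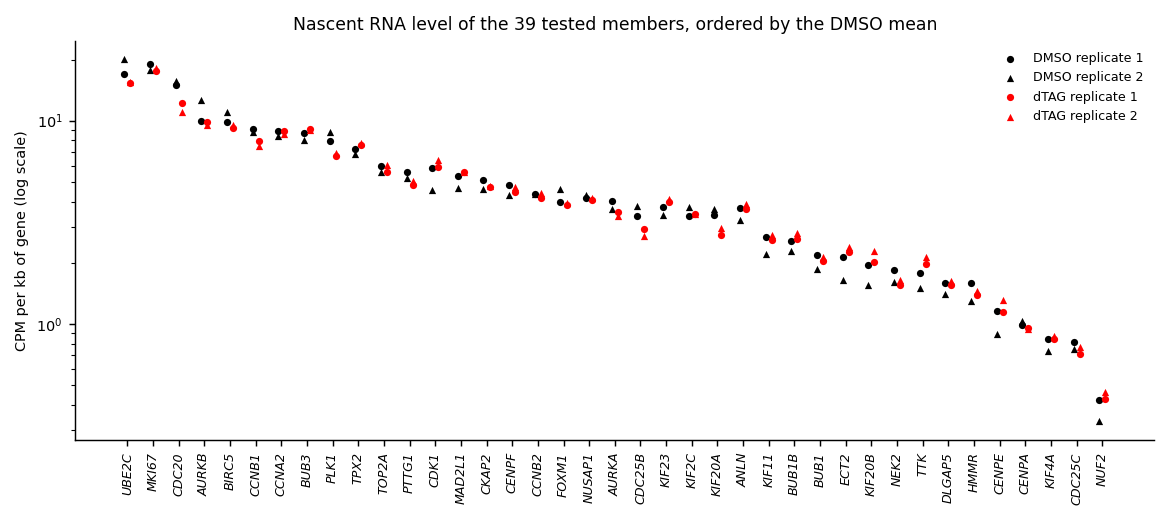
Nascent RNA level of the 39 tested members in CPM per kb of gene (log scale), ordered by the DMSO mean; black marks are the DMSO and red marks the dTAG libraries, circles replicate 1 and triangles replicate 2. Levels run from UBE2C at 18.6 to NUF2 at 0.377 CPM per kb of the counted interval. The spread between libraries of a gene is small beside the spread between genes.

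Of the 39 members tested, 4 passed an adjusted p of 0.05 (10.3%), where 7.10% of all 12612 genes did. In the direction of a rise this was 1 member, beside 3.44% of all genes, and in the direction of a fall 3 members, beside 3.66%. At an unadjusted p under 0.05 there were 6 higher and 7 lower of the 39 members, beside 1555 higher and 1800 lower of the 12612 genes. Both dTAG libraries lay on one side of both DMSO libraries in 22 members, 10 higher and 12 lower (56.4%), where 58.8% of all genes did. These shares are those of a short list beside the whole table and were not tested against it.

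**Figure D3:**
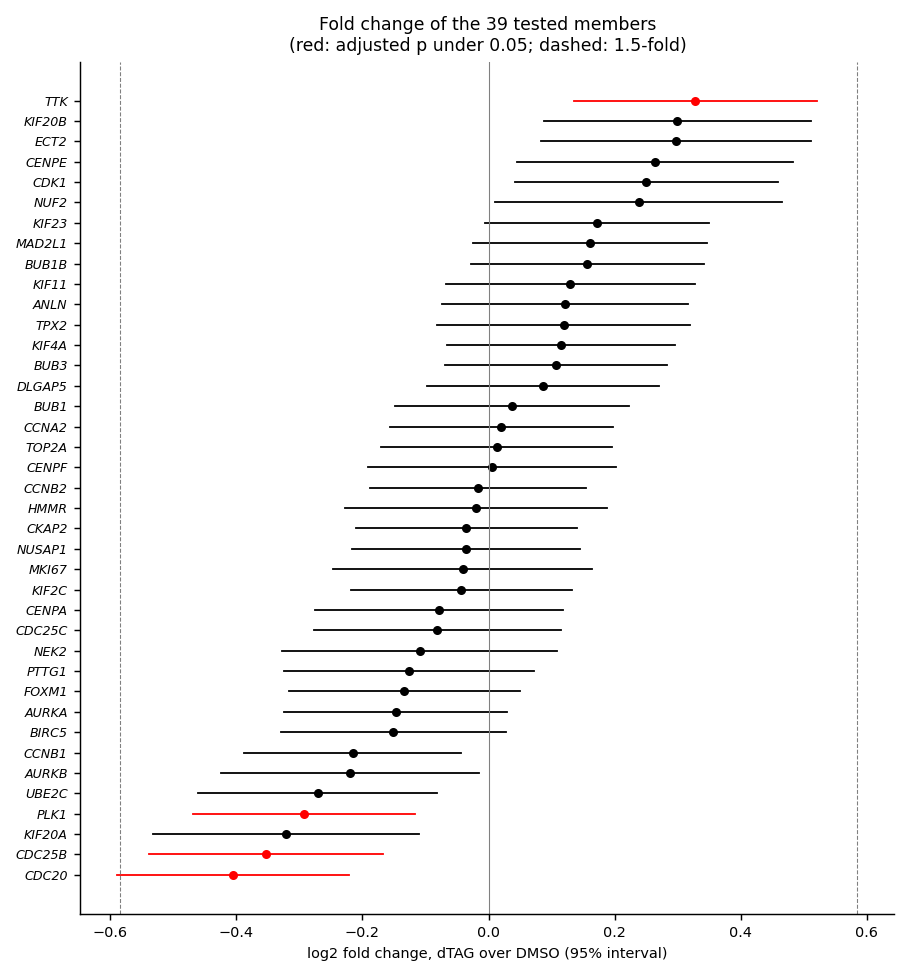
Log2 fold change of dTAG over DMSO for the 39 tested members, sorted, with 95% intervals from the edgeR quasi-likelihood fit; red marks an adjusted p under 0.05 and the dashed lines mark 1.5-fold. Only the interval of CDC20, at the bottom, reaches past a dashed line, and TTK is the top gene.

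Mitotic exit machinery gave the member with the lowest adjusted p. CDC20 (ENSG00000117399, chr1:43358954-43363203, plus strand) had 64.0 and 66.3 CPM with DMSO and 51.6 and 46.7 CPM with dTAG. Both dTAG libraries were below both DMSO libraries, and the log2 fold change was -0.41 (SE 0.088, 95% interval -0.59 to -0.22, adjusted p = 0.0086, edgeR quasi-likelihood test, Benjamini-Hochberg adjusted over all tested genes). UBE2C, which hands ubiquitin to the substrates of the APC/C, had 74.3 and 88.3 CPM with DMSO and 67.1 and 67.7 CPM with dTAG, without overlap (log2 fold change -0.27, SE 0.091, adjusted p = 0.070 in edgeR). PTTG1, the gene of securin, which keeps separase inactive until anaphase, had 38.6 and 36.1 CPM with DMSO and 33.6 and 34.9 CPM with dTAG, a log2 fold change of -0.13. The 3 genes of this group were all below 0 (median -0.27), and only CDC20 passed the test.

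Among the genes of mitotic entry, CDC25B fell. CDC25B (chr20:3786771-3806121, plus strand), the phosphatase that removes the inhibitory phosphates from CDK1 early in G2, had 66.0 and 73.4 CPM with DMSO and 56.8 and 52.3 CPM with dTAG. The groups did not overlap, and the log2 fold change was -0.35 (SE 0.089, 95% interval -0.54 to -0.17, adjusted p = 0.021 in edgeR). The related CDC25C had overlapping groups and a log2 fold change of -0.08 (95% interval -0.28 to 0.11).

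CCNB1, the main mitotic cyclin, had 103 and 98.7 CPM with DMSO and 89.0 and 84.4 CPM with dTAG. Its dTAG libraries were the lower ones, with a log2 fold change of -0.22 (SE 0.083, adjusted p = 0.11 in edgeR) that did not pass the test. Its partner kinase gene CDK1 had 96.2 and 75.1 CPM with DMSO and 97.7 and 106 CPM with dTAG, a log2 fold change of 0.25 (SE 0.10, adjusted p = 0.12 in edgeR). Here DMSO replicate 1 was close to the dTAG libraries and DMSO replicate 2 stood below the other 3. CCNB2 was at 86.7 and 86.9 CPM with DMSO and 83.3 and 88.3 CPM with dTAG, and CCNA2, the cyclin of S phase and early G2, at 66.7 and 62.7, then 66.9 and 64.2 CPM. In these 2 cyclin genes the groups overlapped, with log2 fold changes of -0.02 and 0.02 and intervals from -0.19 to 0.16 and from -0.16 to 0.20.

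All 3 mitotic kinase genes were below 0 (median -0.15). PLK1 (chr16:23677655-23690367, plus strand), the Polo-like kinase that promotes CDK1 activation, centrosome maturation and mitotic exit, had 101 and 112 CPM with DMSO and 85.4 and 88.4 CPM with dTAG. It fell without overlap between the groups (log2 fold change -0.29, SE 0.085, 95% interval -0.47 to -0.12, adjusted p = 0.041 in edgeR). Its interval overlaps ERN2 on the opposite strand, and 8 of the 40 members overlap a gene only in this way, so that reads of the 2 strands can be told apart only if the counting used strand, which is not given in the sources used here. AURKA, the kinase of centrosomes and spindle poles, had 92.9 and 84.0 CPM with DMSO and 81.4 and 78.4 CPM with dTAG, a difference of -0.15 on the log2 scale (adjusted p = 0.27 in edgeR). NEK2, which separates centrosomes, was at -0.11 with overlapping groups.

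The 2 genes of the chromosomal passenger complex, which corrects faulty attachments at the centromere, were also below 0 (median -0.19). AURKB, its kinase, had 58.8 and 73.8 CPM with DMSO and 57.8 and 56.0 CPM with dTAG. DMSO replicate 2 stood above the other 3 libraries and DMSO replicate 1 was just above the dTAG libraries, and the log2 fold change was -0.22 (SE 0.098, adjusted p = 0.16 in edgeR). BIRC5, the gene of survivin, had 113 and 126 CPM with DMSO and 106 and 109 CPM with dTAG, a log2 fold change of -0.15 (adjusted p = 0.26 in edgeR). The transcription factor gene FOXM1, an activator of this program, had 77.4 and 89.3 CPM with DMSO and 75.0 and 77.0 CPM with dTAG. Its dTAG libraries were just below the lower DMSO library, and the log2 fold change of -0.13 (SE 0.088, adjusted p = 0.33 in edgeR) did not pass the test.

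The spindle checkpoint genes were all above 0, with a median of 0.16. Their median GC content was 38.2%, beside 39.8% over all tested members. TTK (chr6:80003886-80042527, plus strand), the kinase also known as MPS1 that starts checkpoint signaling at unattached kinetochores, had 68.7 and 57.9 CPM with DMSO and 76.5 and 82.5 CPM with dTAG. Both dTAG libraries were above both DMSO libraries, and TTK rose by 0.33 on the log2 scale (SE 0.092, 95% interval 0.14 to 0.52, adjusted p = 0.037 in edgeR). BUB3, the highest of the 5 in DMSO level per kb, had 141 and 130 CPM with DMSO and 147 and 145 CPM with dTAG, a log2 fold change of 0.11 (SE 0.085, adjusted p = 0.42 in edgeR). BUB1B, which encodes the APC/C inhibitor BUBR1, and MAD2L1, which encodes the inhibitor MAD2, were each at 0.16, also without overlap between the groups, and BUB1, a kinase of the kinetochore, was at 0.04 with overlap. BUB1B shares 6.17% of its length with the readthrough gene BUB1B-PAK6 on the same strand.

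Of the 4 kinetochore and centromere genes, 3 were above 0 (median 0.12) and none passed the test. CENPF, a large protein of the outer kinetochore, had 297 and 264 CPM with DMSO and 273 and 290 CPM with dTAG, so that the groups overlapped at a log2 fold change of 0.01 (95% interval -0.19 to 0.20). CENPE, the kinesin that moves chromosomes to the spindle equator, had 107 and 82.5 CPM with DMSO and 106 and 122 CPM with dTAG (0.26 on the log2 scale, adjusted p = 0.12 in edgeR), with DMSO replicate 1 inside the dTAG range. NUF2 was at 0.24 without overlap, and CENPA, the histone that marks centromeres, at -0.08. Of the CENPA interval, 46.1% is shared with SLC35F6 on the same strand, and how reads in shared intervals were counted is not given in the sources used here.

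Among 6 kinesin genes, 4 were above 0 (median 0.12), and the closely named KIF20A and KIF20B lay at opposite ends. KIF20A, which brings the passenger complex to the central spindle, had 31.0 and 33.1 CPM with DMSO and 24.7 and 26.6 CPM with dTAG (log2 fold change -0.32, SE 0.10, adjusted p = 0.058 in edgeR). KIF20B, a kinesin of late cytokinesis, had 144 and 114 CPM with DMSO and 149 and 168 CPM with dTAG (0.30, SE 0.10, adjusted p = 0.074 in edgeR). In neither gene did the groups overlap, and neither passed the test. KIF23, a subunit of centralspindlin, had the highest level per kb of the 6, with 129 and 118 CPM with DMSO and 136 and 141 CPM with dTAG, and a log2 fold change of 0.17 (SE 0.085, adjusted p = 0.20 in edgeR). KIF11, the motor that separates spindle poles, was at 0.13, KIF4A at 0.12 and KIF2C, a microtubule depolymerase, at -0.04, all with overlapping groups.

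The proteins of spindle microtubules had a median of -0.02 over 5 tested genes. TPX2, which activates Aurora A and nucleates spindle microtubules, had 456 and 430 CPM with DMSO and 476 and 487 CPM with dTAG, without overlap and with a log2 fold change of 0.12 (SE 0.096, adjusted p = 0.43 in edgeR). NUSAP1, HMMR, DLGAP5 and CKAP2 lay between -0.04 and 0.09 with overlapping groups. PRC1, the bundler of antiparallel microtubules at the spindle midzone, was the member below the count minimum, with 59 and 67 counts with DMSO and 72 and 49 with dTAG. A second gene on the same strand, ENSG00000284946, covers 99.5% of PRC1 and had 123 to 155 counts, so that the level of PRC1 cannot be read from this table.

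Both cytokinesis genes were above 0. ANLN, which encodes the contractile ring scaffold anillin, had 238 and 208 CPM with DMSO and 236 and 250 CPM with dTAG (0.12 on the log2 scale, adjusted p = 0.41 in edgeR). ECT2, the exchange factor that activates RhoA at the division plane, had 152 and 117 CPM with DMSO and 160 and 170 CPM with dTAG (0.30, SE 0.10, adjusted p = 0.077 in edgeR). In ANLN the groups overlapped, and in ECT2 they did not, with DMSO replicate 1 nearer to the dTAG libraries than to DMSO replicate 2.

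For the chromosome structure genes the groups overlapped. MKI67 had 563 and 527 CPM with DMSO and 519 and 541 CPM with dTAG, the most of any member, with a log2 fold change of -0.04 (95% interval -0.25 to 0.16). TOP2A, the topoisomerase that untangles sister chromatids, had 176 and 164 CPM with DMSO and 164 and 179 CPM with dTAG, at 0.01 (95% interval -0.17 to 0.20).

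**Figure D4:**
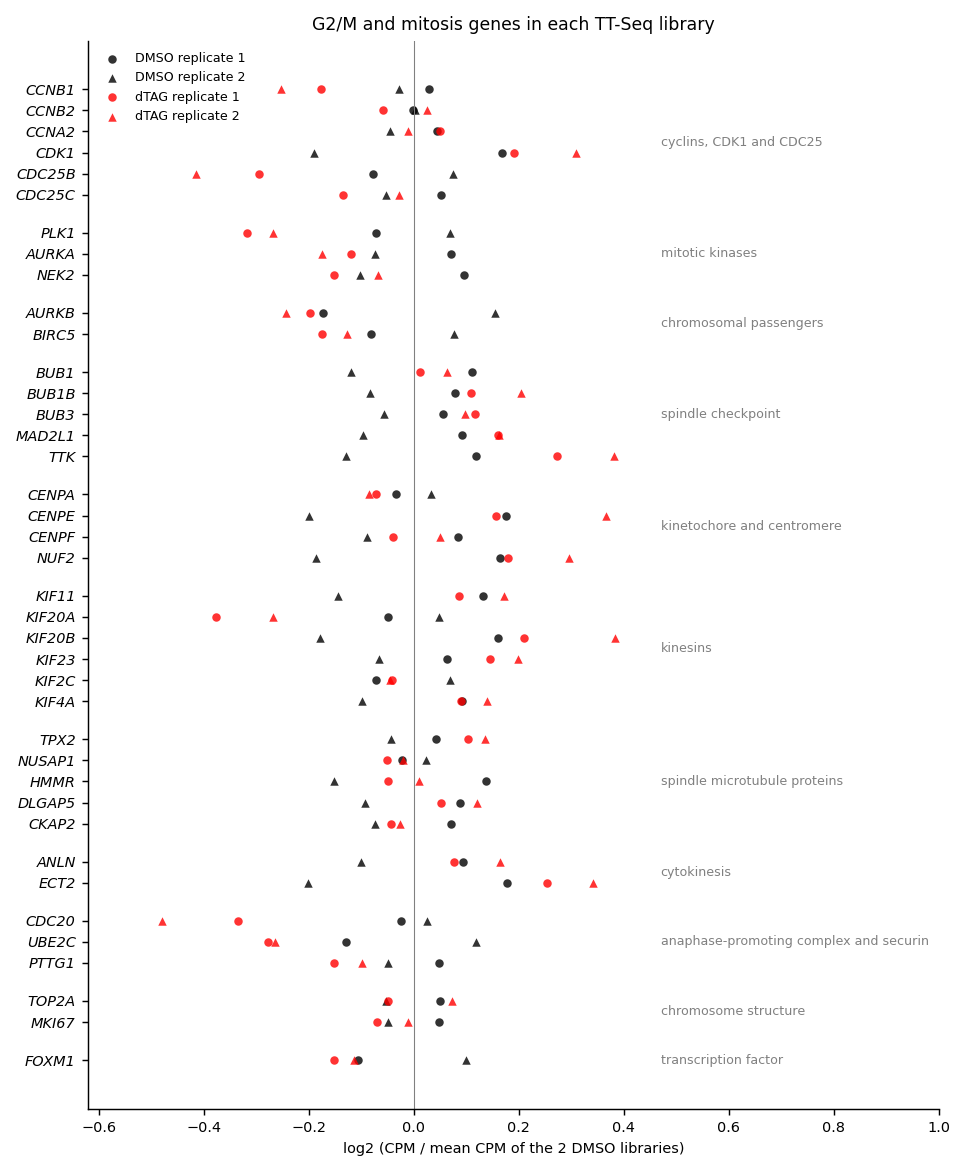
Each tested member in each library, as the log2 ratio of its CPM to the mean CPM of the DMSO libraries (x axis), grouped by role; black marks are DMSO and red marks dTAG libraries, circles replicate 1 and triangles replicate 2. The red marks of CDC20, CDC25B and PLK1 lie left of both black marks and those of TTK right of both, and DMSO replicate 2 (black triangles) lies left of DMSO replicate 1 in 27 of the 39 genes.

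The fold changes ran with the base composition of the genes, and so did the differences between the replicates of one group. Over the 39 members, the log2 fold change had a Spearman rho of -0.88 with the GC content of the gene interval and 0.68 with gene length, against -0.56 and 0.42 over all 12612 tested genes. DMSO replicate 2 over DMSO replicate 1 had a rho of 0.93 with GC content over the members, and dTAG replicate 2 over dTAG replicate 1 a rho of -0.61. These are descriptions across genes of the same 4 libraries, GC content and length are related to each other, and the fold change shares its libraries with the replicate ratios. Of the 20 members with a GC content of up to 39.8%, 16 were above 0 (median 0.13 on the log2 scale), and of the 19 with more, 3 were (median -0.13). Role groups with a median above 0 had a median GC content from 36.4% (cytokinesis) to 39.9% (kinesins). Groups below 0 had from 39.1% (spindle microtubule proteins) to 51.3% (anaphase-promoting complex and securin). Whether a role moved apart from its base composition was not tested.

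CDC20 (52.2% GC, 4.25 kb), CDC25B (53.0%, 19.4 kb) and PLK1 (50.7%, 12.7 kb) were on the GC-rich side, and TTK (35.0%, 38.6 kb) was on the AT-rich side. With each library's trend on GC content and then length removed, the log2 fold changes were -0.23 for CDC20, -0.20 for CDC25B, -0.16 for PLK1 and 0.14 for TTK, with adjusted p of 0.0097, 0.016, 0.033 and 0.048 in edgeR. All 4 calls and directions held at smaller sizes, and rho with GC content was still -0.58 over the members where it was 0.085 over all genes. With the trend on length alone removed, CDC20 was at -0.20 (adjusted p = 0.12 in edgeR) and PLK1 at -0.17 (adjusted p = 0.14 in edgeR), and neither passed the test.

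**Figure D5:**
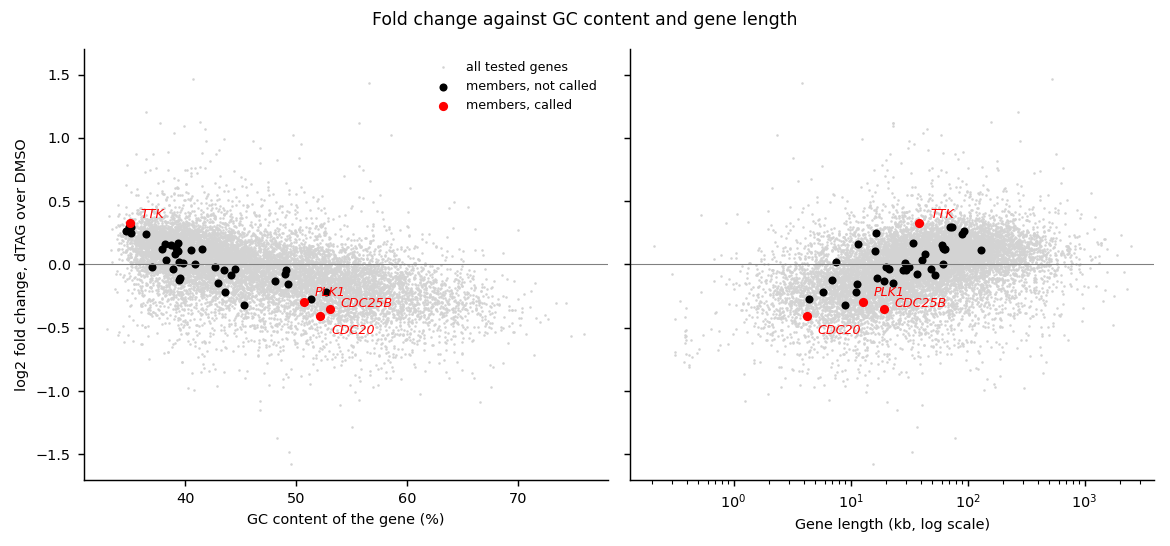
Log2 fold change of dTAG over DMSO against the GC content of the gene in percent (left) and gene length in kb (right, log scale); grey points are all 12612 tested genes, black points the members that did not pass the test and red points those that did. Members follow the downward slope on GC content (rho -0.88) and the upward slope on length (rho 0.68), with TTK at one end and CDC20, CDC25B and PLK1 at the other.

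With a single dTAG library the calls were lost while the fold changes stayed of similar size. In these fits the lone dTAG library is assumed to vary like the DMSO pair, from which the whole estimate of spread then comes, and over all genes the log2 ratio of the replicates had an SD of 0.23 for DMSO and 0.15 for dTAG. Without dTAG replicate 1 or without dTAG replicate 2, none of the 39 or 40 members then tested passed the test, with 6 and 3 at an unadjusted p under 0.05, and 138 and 68 of all genes passed it. CDC20 was then at -0.48 and -0.33 with adjusted p of 0.14 and 0.78 in edgeR, CDC25B at -0.41 and -0.29 (0.25 and 0.87), PLK1 at -0.26 and -0.32 (0.55 and 0.84) and TTK at 0.38 and 0.27 (0.28 and 0.88). Without DMSO replicate 1, 14 members passed as higher and 9 as lower, beside 43.4% of all genes, and without DMSO replicate 2, 1 and 6, beside 11.8%. The directions of these 4 genes held in all 4 cases. This could hardly be otherwise, since in each gene both dTAG libraries lay on one side of both DMSO libraries.

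Scaling to the ERCC spike-in RNAs moved the medians of the members and of all genes to the same value. Relative to gene counts, spike-in counts were 0.0150% and 0.0265% with DMSO and 0.0136% and 0.0103% with dTAG, and when these totals served as library sizes both medians were 0.63 on the log2 scale. Against that median CDC20 at 0.24, CDC25B at 0.30 and PLK1 at 0.37 lay below and TTK at 0.95 above, none past the test. With 1 factor estimated from the spike-ins as a covariate instead, CDC20, CDC25B and PLK1 were at -0.37, -0.24 and -0.24 and passed, and TTK was at 0.07 (adjusted p = 0.62 in edgeR). TTK also missed the threshold with upper-quartile normalization, at 0.26 (adjusted p = 0.076 in edgeR), and with a minimum of 500 counts, at 0.31 (adjusted p = 0.061 in edgeR).

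A wider list of 102 other cell division genes, with 99 tested, also moved little. It covers the other APC/C subunits, cohesin and condensin, the kinetochore, G2/M entry control, spindle and cytokinesis proteins, and the MuvB complex with B-MYB. There were 70 above 0 and 29 below, with a median of 0.08, and 1 rose and 1 fell (2.02%). LIN54, the MuvB subunit that binds the CHR, had 110 and 91.1 CPM with DMSO and 135 and 134 CPM with dTAG, and rose by 0.42 on the log2 scale (SE 0.092, adjusted p = 0.0099 in edgeR). FZR1, which encodes CDH1, the APC/C activator that takes over from CDC20 at mitotic exit, had 38.0 and 45.4 CPM with DMSO and 33.0 and 31.6 CPM with dTAG, and fell (log2 fold change -0.37, SE 0.10, adjusted p = 0.032 in edgeR). In neither did the groups overlap, both genes share sequence with a gene on the opposite strand, and both missed the threshold without dTAG replicate 1 (adjusted p = 0.24 for LIN54 and 0.31 for FZR1 in edgeR) and without dTAG replicate 2 (0.42 and 0.83). FZR1 had 60.7% GC and was at -0.13 with the GC and length trends removed (adjusted p = 0.14 in edgeR), where LIN54, at 39.0% GC, was at 0.28 (adjusted p = 0.0012 in edgeR). Without DMSO replicate 2, FZR1 was at -0.24 (adjusted p = 0.057 in edgeR). With the ERCC factor as a covariate, LIN54 was at 0.18 (adjusted p = 0.098 in edgeR) and FZR1 at -0.20 (adjusted p = 0.19 in edgeR), and neither passed the test.

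By group, the medians of the other list were between 0.03 and 0.13. Median log2 fold changes were 0.03 for the 17 other APC/C genes, 0.11 for the 20 cohesin and condensin genes, 0.07 for the 31 kinetochore genes, 0.10 for the 12 genes of G2/M entry control and 0.05 for the 14 of spindle and cytokinesis. In these 5 groups FZR1 alone passed the test. A CHR stood in 46.2% and an NF-Y box in 58.2% of the 91 genes of this list with a RefSeq entry, between the shares of the 33 members and those of all tested genes.

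Summed over the 40 genes, the program made up 0.480% and 0.469% of the DMSO libraries and 0.454% and 0.467% of the dTAG ones, as shares of counts on genes. The median member stood at 0.06 and -0.06 with DMSO and at -0.04 and 0.01 with dTAG, on the log2 scale relative to the DMSO mean. The dTAG libraries lay between the DMSO libraries in that median and below both in the summed share. The shares use plain gene totals and the median uses TMM-scaled CPM, so these measures differ in scaling as well as in weighting. Which of these sets them apart was not tested. With 2 libraries a group an exact test of either value could not reach 0.05, and none was run.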

How the data were processed

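TT-Seq libraries from DMSO- and dTAG-treated cells (2 biological replicates each, per the methods) were analysed. Reads had been checked with FastQC 0.11.8, trimmed with Trim Galore 0.6.4, mapped to hg38 and counted with featureCounts (Subread 1.6.3), and the authors deposited raw counts per whole protein-coding gene and per ERCC spike-in RNA. Strand and overlap settings are not given in the sources used here. Of 19901 genes, 19802 had a symbol. All 4 columns were used.

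The 12612 genes that reached 50 counts in every library were tested in R 4.3.3 with edgeR 4.0.16: TMM factors from 0.970 to 1.05, quasi-likelihood F test, two-sided, no replicate block, Benjamini-Hochberg adjustment over all tested genes. With a common dispersion of 0.00614 and member counts of 2401 to 55770, the spread between replicates limited the precision, and p-values measure that spread. On data simulated for the comparison of dTAG with DMSO over 12594 genes, the test recovered 90% of 1.5-fold and 97% of 2-fold changes, and 5.08% of calls were false. The simulated counts had the same dispersion for every gene and no trend on GC content or length. The real replicates differ along GC content, so these rates need not hold for the calls made here. CPM used library totals over the tested genes multiplied by the TMM factors, and CPM per kb the whole gene interval. The ± values are SDs. The authors' methods name spike-in normalization without its function or number of factors, so spike-in settings were alternatives, as were DESeq2 1.42.0, upper-quartile factors, a likelihood ratio test, other count filters, a replicate block, lowess removal (span 0.3) of length and GC trends, and leaving out each library. A crossed block was added after seeing the data.

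The members and lists were chosen with earlier results of these data known. Values in every library were given for members that passed the test and for the member of each role with the highest DMSO level per kb, and other members were named after their values were seen. GC content came from hg38, and motifs and start sites from RefSeq (GRCh38.p14). Overlaps were taken among the deposited intervals of the counted protein-coding genes, so overlaps with other kinds of gene are not covered. All 43 entries for the members equalled hg38.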

Additional observations from a re-analysis of the deposited data

How the results depend on the processing

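The 3 falls and 1 rise among the members rest on 2 libraries a group. The members' median log2 fold change stayed within 0.10 of 0 except when ERCC totals served as library sizes. The spike-in settings rest on 14 spike-in RNAs above the minimum.

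The number of members past the threshold, 4 in the report, was 0 with ERCC totals (0 at an unadjusted p under 0.05 in edgeR), 9 with the ERCC factor as a covariate (beside 9.48% of all genes), 8 with the likelihood ratio test (12.6%), 8 with no count filter (8.12%), 2 with the length trend removed (8.35%) and 8 with the GC and length trends removed (18.1%), and ran from 0 to 23 when single libraries were left out. Their median was -0.090 with upper-quartile factors, 0.63 with ERCC totals and -0.10 with the ERCC factor, and ran from -0.042 to 0.065 when single libraries were left out. Of all genes, 895 in the report, 0 passed with ERCC totals (229 at an unadjusted p under 0.05), 1593 with the likelihood ratio test, 1417 with no count filter and 2280 with the GC and length trends removed, and from 68 (without dTAG replicate 2) to 5489 (without DMSO replicate 1). With upper-quartile factors, 255 genes were higher and 869 lower, against 434 and 461. Of the other cell division genes, 2 in the report, 5 passed with upper-quartile factors, 0 with ERCC totals, 8 with the ERCC factor, 4 with the likelihood ratio test, 5 with the length trend removed, 9 with the GC and length trends removed and from 0 to 50 when single libraries were left out. DESeq2 called 5 members, the 4 of the report among them, beside 9.93% of all genes.

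Same-numbered libraries did not deviate together (r = -0.247). With 2 libraries a group, the crossed value is the same with its sign turned, and trends on GC content differ between libraries. Whether the numbers pair the samples therefore cannot be told from this value. With a replicate block, 1 member (CDC20), 1 other cell division gene (LIN54) and 340 of all genes passed. In that fit CDC25B was at -0.35, PLK1 at -0.29, TTK at 0.33 and FZR1 at -0.37, the values of the report, with adjusted p of 0.079, 0.17, 0.10 and 0.10 in edgeR. With the block on crossed numbers (r = 0.247), an alternative chosen after seeing the data, 13 members, 16 other cell division genes and 3190 of all genes passed. 

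Directions turned as follows, and the cause was not tested beyond the shift of all genes to a median of 0.63 with ERCC totals. With those totals AURKB was at 0.46, CCNB1 0.42, CDC20 0.24, CDC25B 0.30, FOXM1 0.54, FZR1 0.30, MKI67 0.60, PLK1 0.37 and UBE2C 0.41. With the ERCC factor ANLN was at -0.095, AURKB at 0.0057, BUB3 at -0.015, CENPF at -0.20 and TPX2 at -9.6e-05. With the GC and length trends removed ANLN was at -0.027 and CENPF at -0.094. CENPF was at -0.067 with upper-quartile factors, -0.016 with a minimum of 500 counts, -0.044 with the length trend removed, -0.080 without DMSO replicate 2 and -0.040 without dTAG replicate 2, and MKI67 ran from -0.089 (without DMSO replicate 2) to 0.0076 (without DMSO replicate 1).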

Other observations

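PRC1 was not alone in its low count. In the wider list of cell division genes, the kinetochore gene PMF1, the spindle gene SPAG5 and the MuvB gene LIN37 had 0 counts in all 4 libraries, and another protein-coding gene on the same strand covers 100% of each. Over the table, 772 genes are covered to at least 99% by genes on the same strand. Of these, 19 (2.46%) passed the count minimum, against 63.4% of all genes, and 599 had 0 counts in every library. A count of 0 in such a gene does not show that it was silent.

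DMSO replicate 2 was below DMSO replicate 1 in 27 of the 39 tested members, and in 6125 of all 12612 genes. The SD over members of the log2 ratio of the replicates was 0.18 for DMSO and 0.074 for dTAG, against 0.23 and 0.15 over all genes.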
